A study of Arabidopsis thaliana with 18 samples.

Results

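COR15A, COR15B, COR47 and LTI30 are genes that plants use in cold and drought, and their transcripts were followed here through phosphate starvation and recovery in Arabidopsis thaliana. Each gene was taken by the probe set that the platform annotation gives to it alone, which left 1 probe set for each of the 4 genes, of 13356 genes with such a probe set. They are COR15A (AT2G42540), COR15B (AT2G42530), COR47 (AT1G20440, also RD17) and LTI30 (AT3G50970, also XERO2). The probe sets were matched by locus, through the platform annotation and RefSeq.

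Messenger RNA was measured on Affymetrix ATH1 arrays in roots and in shoots of wild-type Col-0 plants, which grew hydroponically on rock wool from seed that had been given a cold period before germination in all groups. The replete plants spent 20 days in full MGRL medium, 10 days without phosphate and 3 days back in full medium, and were 33 days old. The starved plants spent 20 days in full medium and 10 days without phosphate, and were 30 days old. The mock plants spent all 30 days in full medium. Recovery and age therefore cannot be told apart, because the replete plants were older than the plants of both other conditions and had no mock plants of their own age. Each organ and condition had 3 arrays, 18 in all, which the labels call biological replicates. The sources used here do not say how many plants went into each, so p-values measure the spread between these samples.

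Plants that meet low temperature switch on a set of cold-regulated genes, largely through the CBF transcription factors, and many of the same genes also answer drought and the hormone abscisic acid. COR15A and COR15B encode related small hydrophilic proteins that are carried into the chloroplast stroma, where they protect membranes and enzymes during freezing. COR47 and LTI30 encode dehydrins, flexible proteins of the late embryogenesis abundant (LEA) class that shield other molecules when a cell loses water. LTI30 is known to bind membrane surfaces.

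The deposited arrays had medians from 5.88 to 5.98 on the log2 scale. All arrays had been normalized to the same quantiles, so like medians do not show how alike the hybridizations were. Of 10 green-tissue markers 4 could be matched to a probe set through the annotation used, and of 9 root markers 3. All 7 lay on the side of their organ in each condition. The green markers PRK, RCA, LHCB4.1 and SBPASE summed to 18.71–19.72, 17.51–18.84 and 17.78–19.6 log2 units in replete, starved and mock roots, and to 47.63–48.54, 48.99–49.14 and 48.85–49.08 in replete, starved and mock shoots. The root markers PYK10, EXPA7 and EXPA18 summed to 27.14–27.68, 29.67–30.13 and 28.57–29.14 in replete, starved and mock roots, and to 15.25–15.75, 14.4–15 and 15.33–15.82 in replete, starved and mock shoots. No marker passed the test between starved and mock shoots. Between replete and starved roots LHCB4.1 was 1.23 higher on the log2 scale, and EXPA7 (-1.20) and EXPA18 (-1.43) were lower. No other marker was called there, and their means went both ways. RCA (5.92 against 5.46) and PYK10 (12.14 against 11.99) were higher in replete than in starved roots. PRK (2.82 against 3.41) and SBPASE (2.90 against 3.20) were lower. Whole organs were sampled, so fewer cells of a type and less RNA per cell cannot be told apart.

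In shoots, the transcripts of all 4 genes stood higher after phosphate starvation than in mock plants, and the 3 starved arrays lay above the 3 mock arrays for each gene. COR15B and LTI30 passed the test. COR15A and COR47 did not pass it.

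COR15B reached 11.47, 11.53 and 11.45 on the log2 scale in the 3 starved shoot arrays, against 9.70, 10.57 and 10.09 in the mock shoots. The starved arrays were nearly equal and the mock arrays were spread over almost 1 unit, with the second the highest, and the groups were 0.88 apart at their closest. The difference between starved and mock shoots, called the response here, was 1.36 ± 0.16 (SE), a 2.57-fold higher level. Its adjusted p in the limma fit over all probe sets was 6.7e-05.

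LTI30 gave 9.23, 9.44 and 9.07 in starved shoots, against 7.99, 8.34 and 7.86 in mock shoots. Here too the second mock array was the highest of its group, and it was still 0.73 below the lowest starved array. The response was 1.18 ± 0.17 (SE), or 2.27-fold, with an adjusted p of 0.00094 in the limma fit, just inside the threshold of 0.001 that was used for calls. That call rests on little margin. It was lost in 14 of the 18 fits that left out a single array. Over all 18 the response ran from 1.08 to 1.32 and the adjusted p of the limma fit from 0.00038 to 0.010. The LTI30 call was also lost with Bonferroni adjustment (0.082) or a fit on the shoot arrays alone (0.013). COR15B was called in all 18 such fits, with responses from 1.15 to 1.59, but Bonferroni adjustment (0.0029) and the shoot arrays alone (0.0068) took its adjusted p above the threshold.

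COR15A, the neighbour of COR15B on the chromosome in the RefSeq annotation, had 11.32, 11.46 and 11.15 in starved shoots, against 10.15, 10.77 and 10.41 in mock shoots. The groups were 0.38 apart. The response was 0.87 ± 0.19 (SE), and its adjusted p of 0.019 in the limma fit missed the threshold. COR15A and COR15B are similar in sequence, and how far each probe set also binds the transcript of the other was not tested.

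COR47 showed 11.01, 11.11 and 11.07 in starved shoots, against 10.22, 10.57 and 10.34 in mock shoots. Its starved arrays were close together and 0.44 above the highest mock array. The response was 0.69 ± 0.15 (SE), with an adjusted p of 0.017 in the limma fit.

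**Figure D1:**
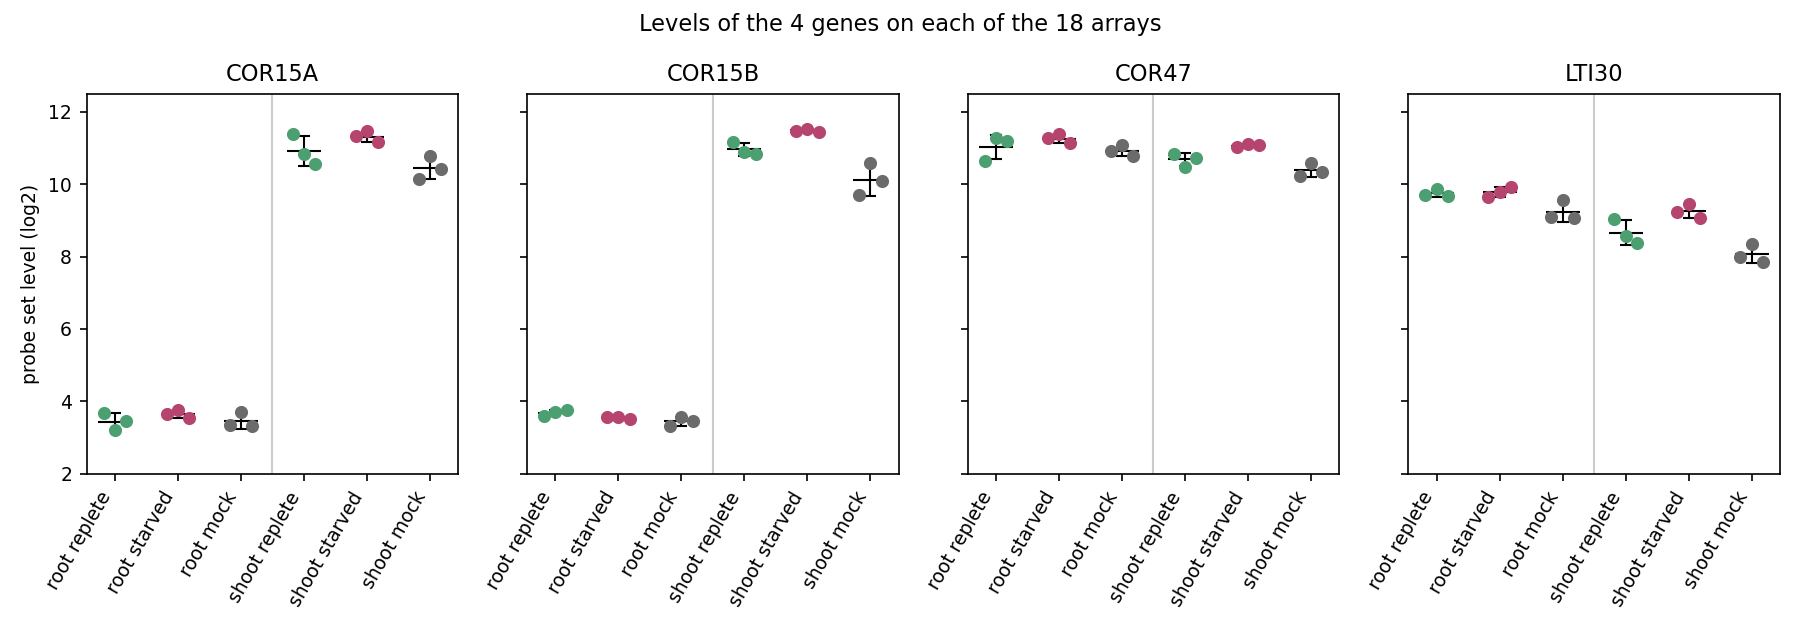
Level of each gene on the log2 scale (vertical axis) for the 3 arrays of each organ and condition (horizontal axis). Points are arrays and bars are the mean ± SD. In every panel the starved shoots lie above the mock shoots, and COR15A and COR15B lie between 3.2 and 3.76 on every root array.

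Set against the array as a whole, 2 of the 4 genes were called higher in the shoot response, where 0.387% of the 22746 probe sets were called higher (0.207% without the second starved shoot array and 0.624% without the third). At an adjusted p of 0.05 all 4 passed in the limma fit, where 1.86% of probe sets were called higher. All 4 genes had starved arrays wholly above the mock arrays, as had 9.76% of probe sets. Their median response was 1.03, whereas the median over all probe sets was 0 and 95% of probe sets had a response below 0.38. Of all probe sets, 99.0% had a smaller shoot response than COR15A, 99.7% than COR15B, 98.4% than COR47 and 99.5% than LTI30. The 4 genes were chosen with earlier results of these data known. These shares and percentiles are therefore descriptions and not an independent test.

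**Figure D2:**
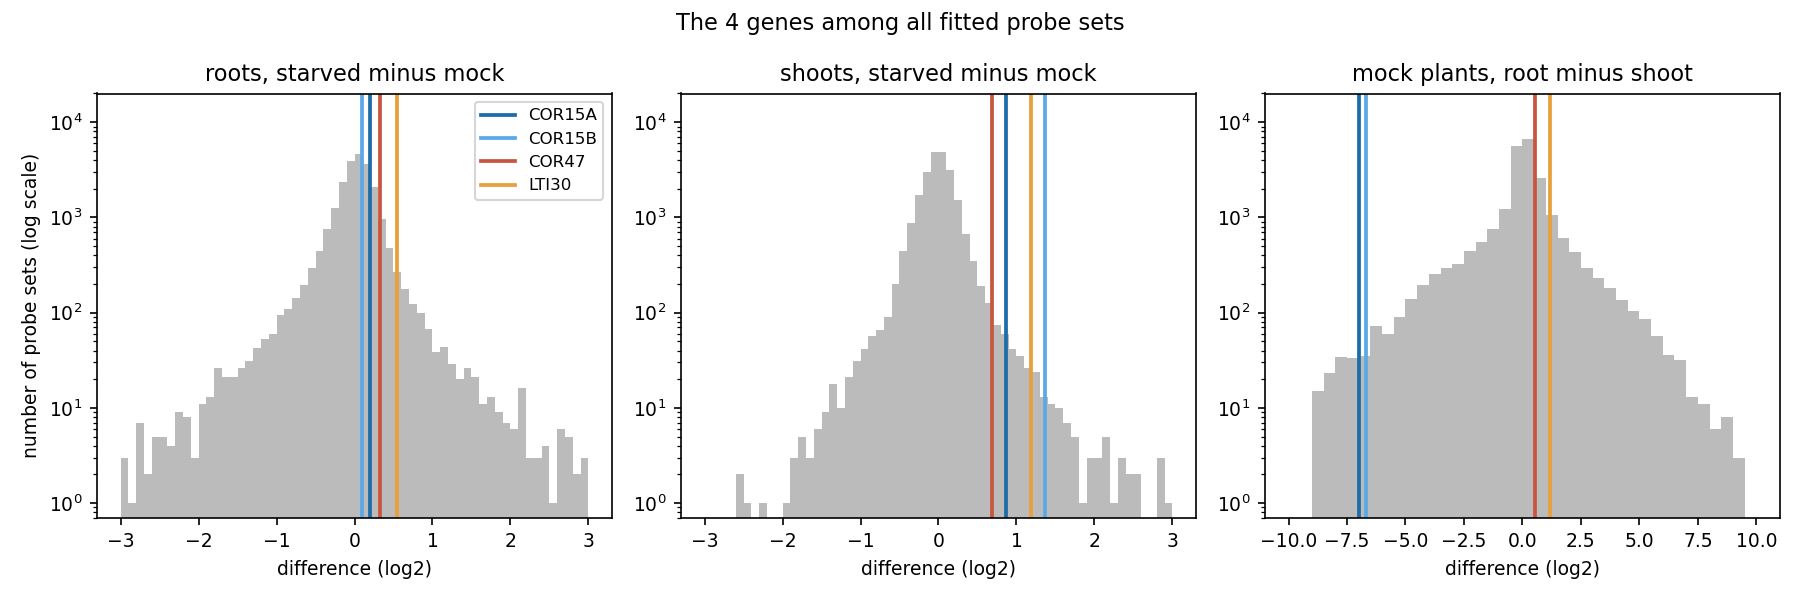
Number of probe sets (vertical axis, log scale) by their difference on the log2 scale (horizontal axis), for starved minus mock roots, starved minus mock shoots, and root minus shoot in mock plants. Coloured lines mark the 4 genes, which all lie at the upper edge in the shoot panel, with a median of 1.03.

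After 3 days back in full medium the shoot levels of all 4 genes lay between those of starved and mock shoots in their means, and none of the 4 passed the limma test, although 3 had an unadjusted p under 0.05. In that comparison 0.602% of probe sets were called lower (0.268% without the first starved shoot array and 1.06% without the third) and 0.106% higher (0.0264% to 0.211% when single arrays were left out). COR15B had 11.17, 10.88 and 10.82 in replete shoots, all below its starved arrays, a difference of -0.53 ± 0.16 (SE, adjusted p = 0.044 in the limma fit). LTI30 had 9.03, 8.58 and 8.36 in replete shoots, and its highest replete array was 0.04 below its lowest starved array, a difference of -0.59 ± 0.17 (SE, adjusted p = 0.044 in the limma fit). COR47 had 10.83, 10.48 and 10.73 in replete shoots, also without overlap with starved shoots, a difference of -0.38 ± 0.15 (SE). COR15A had 11.37, 10.83 and 10.56 in replete shoots, and the first of these was above 2 of the 3 starved arrays. For 3 of the 4 genes the replete shoots thus lay wholly below the starved shoots, as they did for 13.8% of probe sets.

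Set against mock shoots, replete shoots were higher by 0.84 ± 0.16 (SE) in COR15B, with an adjusted p of 0.015 in the limma fit. The difference was 0.59 ± 0.17 in LTI30, 0.48 ± 0.19 in COR15A and 0.30 ± 0.15 in COR47 (SE), with adjusted p from 0.078 to 0.29 in the same fit. None of the 4 was called, 3 had an unadjusted p under 0.05, and 0.0132% of all probe sets were called higher. With the replicate number as a block, 6 probe sets were called higher instead of 3, and again none of the 4 genes. In COR15B and LTI30 the replete arrays did not overlap the mock arrays, by 0.25 in COR15B and by 0.02 in LTI30, and 10.8% of probe sets were higher in this way. As a share of the response in the means, 61.4% remained in COR15B, 55.0% in COR15A, 50.1% in LTI30 and 44.2% in COR47. Both differences behind these shares use the same mock arrays. Single arrays moved the shares. Without the first replete shoot array they were 29% in COR15A, 34.4% in LTI30, 33.3% in COR47 and 53.5% in COR15B. Without the third replete shoot array 75.8% remained in COR15A and 62.7% in LTI30. For COR15A the replete minus mock difference ran from 0.25 to 0.66 in the same way, lowest without the first replete shoot array.

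**Figure D3:**
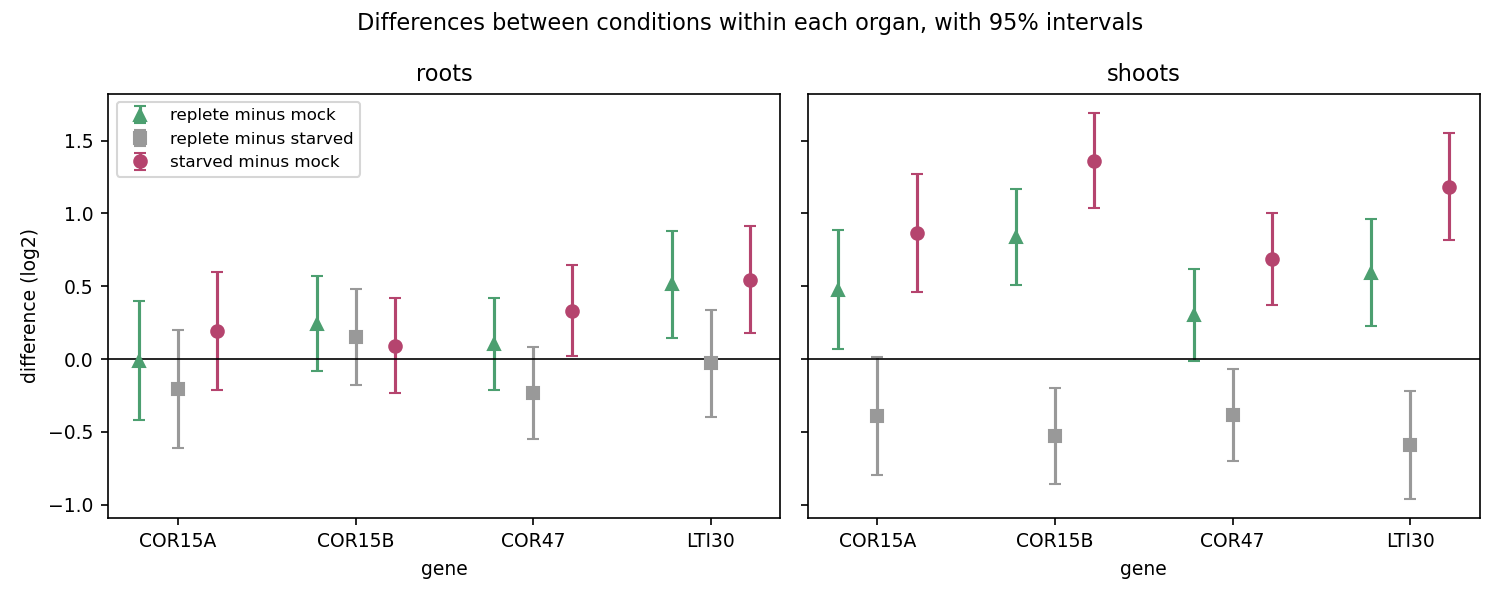
Differences between conditions on the log2 scale (vertical axis) for each gene (horizontal axis), in roots and shoots. Triangles are replete minus mock, squares replete minus starved and circles starved minus mock, with 95% confidence intervals. In shoots the circles run from 0.69 to 1.36, and in roots they run from 0.09 to 0.54.

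In roots none of the 4 genes passed the limma test between any 2 conditions. LTI30 had the largest root response of the 4, with 9.64, 9.79 and 9.91 in starved roots, against 9.08, 9.57 and 9.06 in mock roots. The groups were 0.07 apart, because the second mock array was high. The response was 0.54 ± 0.17 (SE), with an adjusted p of 0.059 in the limma fit.

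COR47 had 11.26, 11.38 and 11.12 in starved roots, against 10.91, 11.08 and 10.77 in mock roots. These groups were 0.04 apart, and the response of 0.33 ± 0.15 (SE) had an adjusted p of 0.19 in the limma fit. COR15A, whose root response was 0.19 ± 0.19 (SE), and COR15B, with 0.09 ± 0.16 (SE), had overlapping starved and mock roots. Both of these genes had low signal on the root arrays (percentiles 21.7 to 28.4), and whether it was above background was not tested. None of the 4 was called in the root response and 2 had an unadjusted p under 0.05 in the limma fit, where 1.55% of probe sets were called higher. LTI30 and COR47 had starved roots wholly above mock roots, as had 16% of probe sets.

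Between replete and starved roots the differences of the 4 genes ran from -0.23 to 0.15, with adjusted p from 0.28 to 0.92 in the limma fit and no unadjusted p under 0.05, while 2.79% of probe sets were called lower and 2.36% higher. COR15B had 3.61, 3.72 and 3.75 in replete roots, against 3.56, 3.56 and 3.51 in starved roots, a gap of 0.05 that 14.8% of probe sets matched in being wholly higher. LTI30 had 9.71, 9.86 and 9.68 in replete roots, overlapping the starved roots, and its difference of -0.03 had an interval from -0.40 to 0.34. Replete roots were 0.51 ± 0.17 (SE) above mock roots in LTI30, with an adjusted p of 0.12 in the limma fit, and -0.01 to 0.24 from mock roots in the other 3 genes. None was called by limma, 1 had an unadjusted p under 0.05, and 0.022% of probe sets were called higher. The replete arrays lay wholly above the mock arrays in LTI30 and COR15B, as in 11.5% of probe sets.

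Whether roots and shoots differed in their response was tested directly, as the root response minus the shoot response. COR15B gave the largest such difference of the 4, -1.27 ± 0.22 (SE), with an adjusted p of 0.0038 in the limma fit. It missed the threshold with all arrays and passed it without the second mock shoot array (-1.495, adjusted p = 0.00032). The other 3 genes gave -0.67 ± 0.27 in COR15A, -0.64 ± 0.25 in LTI30 and -0.35 ± 0.21 in COR47 (SE), with adjusted p from 0.15 to 0.38 in the limma fit. None of the 4 was called, 3 had an unadjusted p under 0.05, and 0.0923% of probe sets were called lower. The same test on the recovery gave 0.68 ± 0.22 (SE, adjusted p = 0.046 in the limma fit) in COR15B and 0.15 to 0.56 in the other 3. None was called and 2 had an unadjusted p under 0.05, where 0.528% of probe sets were called higher. A difference in response between organs was thus not shown for any of the 4 genes at the threshold used. For COR15A and COR15B the root side of these differences rests on the low root signal, which was not tested against background.

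Roots and shoots were then compared within each condition. COR15A and COR15B, the chloroplast proteins, were high in shoots and low in roots. The dehydrins COR47 and LTI30 were present in both organs, with LTI30 higher in roots.

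COR15A gave 3.67, 3.20 and 3.45 in replete roots, against 11.37, 10.83 and 10.56 in replete shoots. In mock plants it gave 3.34, 3.70 and 3.31 in roots, against 10.15, 10.77 and 10.41 in shoots. The organs were far apart in each condition, with root minus shoot differences of -7.48 in replete, -7.67 in starved and -6.99 ± 0.19 (SE) in mock plants. COR15B gave -7.26 in replete, -7.94 in starved and -6.67 ± 0.16 (SE) in mock plants. The adjusted p of both genes in the limma fit was 2.2e-15 or lower in each condition. In mock plants the signal was 127-fold lower in roots for COR15A and 102-fold lower for COR15B. On the root arrays both probe sets stood between percentiles 21.7 and 28.4 of all probe sets of their array, and on the shoot arrays between 94.4 and 99.2. No detection calls were used, so whether the root signal was above background was not tested, and the folds are ratios of signal.

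LTI30 was higher in roots by 1.09 ± 0.17 (SE) in replete plants and by 1.17 ± 0.17 (SE) in mock plants, 2.13-fold and 2.26-fold, with adjusted p of 2.7e-05 and 1.3e-05 in the limma fit. In starved plants the difference was 0.53 ± 0.17 (SE), and its adjusted p of 0.013 in the limma fit missed the threshold. In each condition every root array of LTI30 was above every shoot array. The share of all probe sets with such a separation between organs was not computed. In COR47 the organs differed by 0.34 in replete, 0.19 in starved and 0.54 ± 0.15 (SE) in mock plants, with adjusted p of 0.053, 0.29 and 0.0044 in the limma fit. The replete arrays of COR47 overlapped between organs, with 10.63, 11.26 and 11.18 in roots, against 10.83, 10.48 and 10.73 in shoots.

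In mock plants 2 of the 4 genes were called lower in roots and 1 higher, where 18.3% of probe sets were called lower and 24.5% higher. In replete plants the counts were again 2 lower and 1 higher, where 19.1% were called lower and 27% higher. In starved plants 2 were called lower and 0 higher, where 19.1% were lower and 28.2% higher. LTI30 had an unadjusted p under 0.05 in the limma fit in starved plants. A call between organs was thus common on these arrays. The size of the COR15 difference was not, since in mock plants 0.462% of probe sets had a lower value than COR15A and 0.541% a lower value than COR15B.

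**Figure D4:**
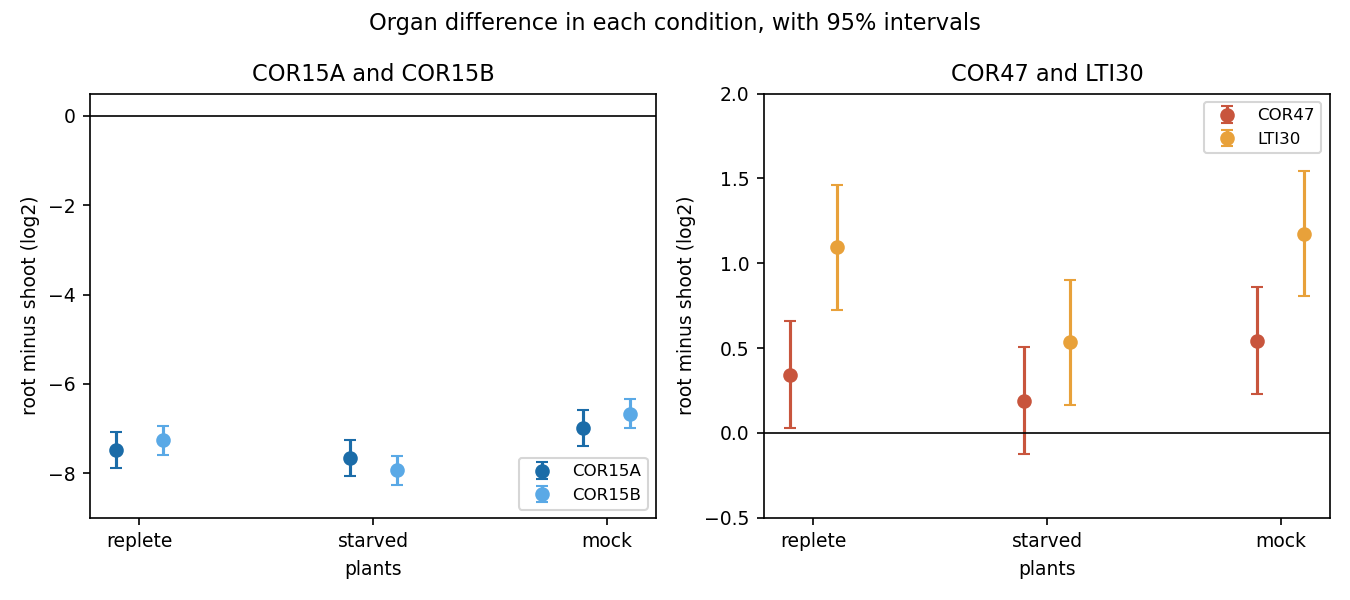
Root minus shoot difference on the log2 scale (vertical axis) in replete, starved and mock plants (horizontal axis), with 95% confidence intervals. COR15A and COR15B lie between -7.94 and -6.67, and COR47 and LTI30 between 0.19 and 1.17. The panels have different vertical scales.

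The order of the 6 groups followed these differences. COR15A ran from starved shoots (11.31 ± 0.16) through replete shoots (10.92 ± 0.41) to mock shoots (10.44 ± 0.31), and neighbours in that order overlapped (SD, n = 3 each). Its root groups, all from 3.44 to 3.64 in the mean, overlapped each other, and the highest of these means lay 6.80 below that of the mock shoots. COR15B had the same order in shoots, starved 11.48 ± 0.04, replete 10.96 ± 0.19 and mock 10.12 ± 0.44, with no overlap between neighbours (SD, n = 3 each). Its root groups were replete at 3.69, starved at 3.54 and mock at 3.45, and starved and mock roots overlapped.

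COR47 spanned a narrow range, with starved roots highest (11.25 ± 0.13) and mock shoots lowest (10.38 ± 0.18). Between them stood starved shoots (11.06 ± 0.05), replete roots (11.02 ± 0.34), mock roots (10.92 ± 0.16) and replete shoots (10.68 ± 0.18), each overlapping the next (SD, n = 3 each). Only the starved roots and starved shoots were neighbours without overlap, and barely so. The lowest starved root array was at 11.12 and the highest starved shoot array at 11.11. This pair was not called (adjusted p = 0.29 in the limma fit).

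LTI30 was highest in starved roots (9.78 ± 0.14) and replete roots (9.75 ± 0.10), which overlapped. Starved shoots (9.25 ± 0.19) and mock roots (9.24 ± 0.29) were 0.01 apart in the mean and overlapped too. Replete shoots (8.66 ± 0.34) and mock shoots (8.06 ± 0.25) came last, each below the group before it without overlap (SD, n = 3 each).

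The 4 genes also varied together from array to array within the shoot groups. The second mock shoot array was above its group mean in all 4 genes, by 0.45 in COR15B and 0.33 in COR15A, and the first replete shoot array was above its mean in all 4, by 0.45 in COR15A and 0.37 in LTI30. In starved shoots the second array was above the mean in all 4 genes, by 0.15 in COR15A, 0.19 in LTI30 and only 0.05 in COR15B and in COR47. Across the 9 shoot arrays the levels of the 6 pairs of genes had Pearson correlations from 0.89 to 0.96, and the deviations from the group means from 0.58 to 0.92. Across the 9 root arrays the correlations of the levels were 0.02 to 0.69 and those of the deviations -0.20 to 0.61. These are descriptions. The points share arrays and normalization, and in roots the COR15 values hardly varied. How far other pairs of probe sets varied together on these arrays was not tested.

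**Figure D5:**
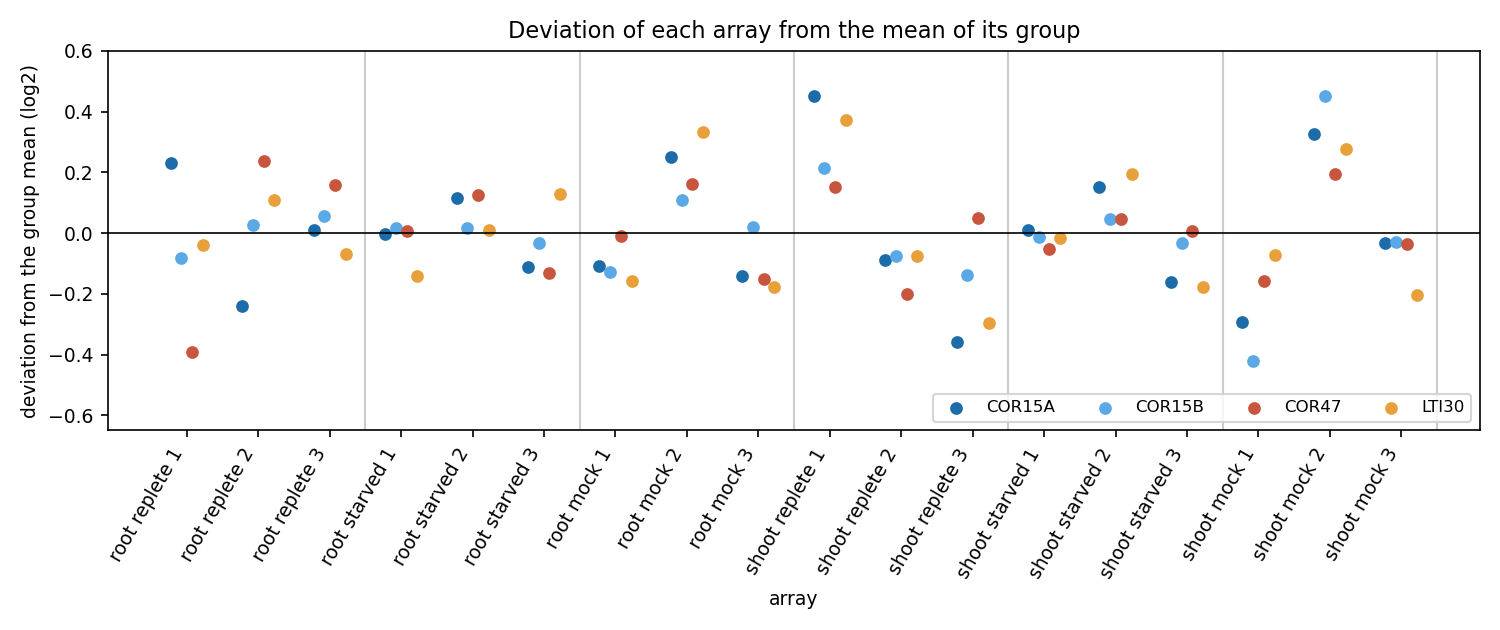
Deviation of each array from the mean of its group on the log2 scale (vertical axis), by array (horizontal axis), for the 4 genes. The second mock arrays of both organs and the first replete shoot array are above their mean in all 4 genes, and the first and the third mock shoot arrays are below it in all 4.

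Over the 18 arrays, each organ's mean taken off, the probe sets whose pattern was most like LTI30 were COR15B (r = 0.87), the linker histone HIS1-3 (0.86) and COR15A (0.84), of 13512 other probe sets of 1 gene. For COR15A they were AT3G09540 (0.87), COR15B (0.85) and LTI30 (0.84). For COR15B they were PWD, a phosphoglucan water dikinase (0.90), AT2G21130 (0.90) and AT5G39410 (0.90), with LTI30 at rank 5 and COR15A at rank 9. For COR47 they were AT4G19390 (0.85), AT2G07751 (0.84) and AT1G06990 (0.83), with LTI30 at rank 8, COR15B at rank 18 and COR15A at rank 109. COR47 itself was at rank 11 for LTI30, 18 for COR15B and 78 for COR15A.

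Other genes of the cold and dehydration response were called mostly between organs, where calls were common on these arrays. Beside the 4 genes, 91 genes were listed in 6 groups, and 14 of them could be matched to a probe set through the platform annotation used here, which names no gene for 8794 probe sets: 1 of 14 cold regulators, 2 of 16 cold-regulated targets, 4 of 8 other dehydrins, 7 of 12 other LEA proteins, and none of 27 genes of abscisic acid synthesis and signalling or of 14 abscisic acid and drought targets. The array may hold probe sets for the others, among them the CBF factors and the abscisic acid pathway, which were not analysed here. In the shoot response 0 of the 14 passed the limma test, and with 0.387% of all probe sets called higher a count of 0 in so few genes says little. Of the 14, 7 had an unadjusted p under 0.05 in that fit. Closest to the threshold was COR27, a cold-regulated gene, at 1.29 ± 0.24 (SE, adjusted p = 0.0067). AT4G33980, the other cold-regulated target, had 1.18 ± 0.46 (SE, adjusted p = 0.18 in the limma fit), and the small dehydrin HIRD11 had 0.29 ± 0.11 (SE, adjusted p = 0.14 in the limma fit). In mock shoots COR27 stood between percentiles 17.0 and 27.4 and AT4G33980 between 15.2 and 17.6, and whether that signal was above background was not tested. The LEA genes went both ways in the shoot response. LEA18 had 0.23 and AtLEA4-1 had 0.22, while the drought-induced DI21 had -0.31 and AT3G02480, listed with the LEA proteins, had -0.57. LEA18 and AtLEA4-1 were dim in starved and mock shoots, between percentiles 3.4 and 16.2, and AT3G02480 stood between 17.1 and 31.9. Whether the signal of these 3 genes was above background was not tested.

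Some listed LEA and dehydrin genes passed the test in comparisons where none of the 4 genes did, though the genes were not tested against each other. In the shoot recovery 1 of the 14 was called higher, against 0.106% of all probe sets. It was AT3G02480 (1.58 ± 0.24, SE, adjusted p = 0.00092 in the limma fit). In the root response 2 of the 14 were called lower, where 0.708% of probe sets were called lower (0.325% without the first starved root array and 1.32% without the third). These were AT3G02480 (-1.58 ± 0.24) and AT4G38410, listed with the dehydrins (-1.27 ± 0.14, SE). Between organs in mock plants AT4G38410 (3.77), DI21 (2.197) and AT4G33980 (2.25) were higher in roots, and the zinc finger factor ZAT10 (-1.51) and LEA4-5 (-1.03) were lower. In replete plants the same 3 were higher, and ZAT10 (-1.79), LEA4-5 (-0.99), AT3G02480 (-1.44) and AtLEA4-1 (-0.52) were lower. In starved plants AT4G38410 (2.39) and DI21 (2.19) were higher in roots and ZAT10 (-2.09) and LEA4-5 (-1.06) lower, while AT4G33980 (1.34) missed the threshold. Of the 14, 3 were thus called higher and 2 lower in mock plants, where 24.5% and 18.3% of probe sets were. In replete plants 3 were higher and 4 lower (27% and 19.1%), and in starved plants 2 and 2 (28.2% and 19.1%). Whether these counts differ from those shares was not tested. Several of the calls rest on low signal in at least 1 group. AtLEA4-1 stood between percentiles 5.21 and 7.57 in replete roots and was dim in replete shoots too. AT3G02480 stood between 13.7 and 25.4 in starved and replete roots, and between 17.1 and 22.2 in starved shoots. AT4G38410 stood between 21.8 and 31.6 in shoots, and LEA4-5 between 26.2 and 30.4 in roots. AT4G33980 stood between 15.2 and 35.7 in mock and replete shoots. Whether these signals were above background was not tested. In the other comparisons, which are the root recovery, replete minus mock in either organ, and the organ differences of response and recovery, none of the 14 was called by limma.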

How the data were processed

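Total RNA of roots and shoots was hybridised to ATH1 arrays, 3 per group in 6 groups. Values were deposited as log2 signal. For these the authors used affy, whose version is not given in the sources used here. They corrected the background, normalized all arrays to the same quantiles and summarised the probes of a probe set by median polish. Quantile normalization sets all arrays, roots and shoots alike, to a common distribution. No counts exist for arrays, so the number of arrays limits the precision. The deposited table listed 22810 probe sets (lowest value 1.33, highest 13.45). After 64 control probe sets were left out, 22746 were fitted. The platform annotation gave 1 gene to 13513 of the listed probe sets, several to 503 and none to 8794. Of the first kind, 13436 matched a locus of RefSeq TAIR10.1, which was used for loci, names and neighbours.

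The 18 arrays entered a single linear model with a mean for each group (limma version 3.58.1, functions lmFit and eBayes, under R version 4.3.3). It left 12 residual degrees of freedom, or 16.5 after moderation. P-values are two-sided, were adjusted over all fitted probe sets within each contrast by Benjamini-Hochberg, and were called at 0.001, the threshold of the study's methods, which name Bonferroni adjustment (an alternative here). The script was tested on simulated data. At most 2.35% of probe sets had identical values on any 2 arrays of a group, so no array was a copy. Labels number the replicates without saying that a number marks a shared experiment. Same-numbered arrays deviated together (r over 0.1 in all 3 pairs) between replete and mock shoots alone, with r from 0.151 to 0.297, and the block was read as a pairing only there.

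The genes named were the 4 genes, the 3 probe sets most like each by Pearson correlation over organ-centred arrays, and, from the gene lists, those called plus up to 4 others a list by the smallest p in the shoot response. The genes and lists were chosen with earlier results of these data known. Tried as alternatives were 30 other settings: the threshold, the adjustment, centring, normalization, filters, array weights, moderation, replicate numbers and arrays left out.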

Additional observations from a re-analysis of the deposited data

How the results depend on the processing

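Of 1300 values of single genes under 30 alternatives, 1253 kept direction and call, 22 lost a call, 15 gained one and 10 changed sign. The 2 calls in the shoot response became 4 at an adjusted p of 0.05, 0 with Bonferroni adjustment, 0 with the shoot arrays alone, 1 after centring on spike-ins, 1 without both starved arrays numbered 3 (chosen after earlier results were known), and 1 to 2 when single arrays were left out. Among the fits without a single array, LTI30 kept its call without mock shoot 2, replete shoot 1, replete shoot 3 or mock root 2 and lost it in the other 14, and its adjusted p ran from 3.2e-05 to 0.082 over all alternatives. COR47 was called in the shoot response with array weights (0.71, adjusted p = 0.00079). The threshold of 0.05 added 2 calls in the shoot recovery, 1 in replete minus mock shoots and 1 each in the organ differences of response and recovery, where there was none. Array weights added 1 in replete minus mock shoots (COR15B) and 1 in the organ difference of the response (COR15B), where leaving out single arrays gave 0 to 1. Bonferroni adjustment ended the LTI30 organ calls (0.091 in mock and 0.21 in replete plants). COR47 was called between organs of mock plants with array weights (9.4e-05) and without replete root 1 (0.00063).

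The sign changes were all in small root differences that were never called. COR15B in the root response was -0.0378 after centring on spike-ins. LTI30 in the root recovery was 0.0293 with array weights and 0.035 without both starved arrays numbered 3, and ran from -0.1 to 0.035 when single arrays were left out (0.035 without starved root 3 and 0.005 without replete root 3). In replete minus mock roots COR47 was -0.000741 after centring on spike-ins and ran from -0.015 (without replete root 2) to 0.3 when single arrays were left out. COR15A there was 0.0494 with quantile normalization within the organ and ran from -0.125 to 0.115 when single arrays were left out, positive without mock root 2 (0.115) and without replete root 2 (0.11). The cause was not tested.

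Over 27 same-numbered pairs of arrays, 13 had deviations that correlated with r over 0.1 (-0.114 to 0.454), and 18 were best matched by their own number. All 3 pairs were over 0.1 between replete and mock shoots and in no other pair of groups. With the replicate block the shoot response again had 2 calls among the 4 genes (COR15B 0.00032 and LTI30 0.00048), with 100 probe sets called higher against 88. It changed no call among the 4 genes. Over all probe sets, the shoot response had 424 higher at 0.05, 33 with Bonferroni adjustment, 228 with array weights, 32 with the shoot arrays alone, 151 without both starved arrays numbered 3 and 47 to 142 without single arrays. Spike-in centring gave the root response 308 lower against 161. Counts of all comparisons except those between organs within a condition moved by over 1.5 times without single arrays, and the shares called move with them. Centring on reference genes turned the split between organs in replete plants to 4609 higher and 5248 lower in roots, against 6131 and 4351 (median of all probe sets -0.12), and LTI30 kept its call.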
